A study of Rattus norvegicus with 9 samples.

Results

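The 9 genes described here belong to the complement system and were measured in cultured rat cardiac fibroblasts of 3 ages. They were C1qa, C1qb, C1qc, C1s, C3, Cfb, Cfd, Serping1 and C3ar1, a list of named components, receptor and inhibitor, taken by gene symbol from a count table of 17337 genes. All 9 were found under these symbols. The hearts were fetal (embryonic day 18), newborn (postnatal day 1, called neonatal) or adult (7 weeks), all of the Sprague Dawley strain and with no genetic change or treatment named in the labels. There were 3 libraries per age. All cultures were unpassaged cells grown to confluency with serum and ascorbic acid, and no purification step is described, so other cells of the heart could be present. The labels do not say whether the libraries of an age came from separate animals, so p-values measure the spread between these libraries, which may be technical.

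Complement is a cascade of plasma and tissue proteins that tags and clears microbes and cell debris. In the classical pathway the recognition molecule C1q, built from the A, B and C chains encoded by C1qa, C1qb and C1qc, activates the proteases C1r and C1s, which cleave C4 and C2. All pathways meet at C3, whose larger fragment binds to surfaces and whose smaller fragment signals through the receptor C3ar1, and factor B (Cfb) and factor D (Cfd, also called adipsin) drive the alternative loop that amplifies C3 cleavage. The C1 inhibitor encoded by Serping1 blocks C1r and C1s. C1q is a textbook product of tissue macrophages, whereas C1r, C1s, C3 and the C1 inhibitor are also made by fibroblasts.

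Library totals ran from 13392825 to 22850491 assigned counts, and the adult libraries were the shallowest. Abundances are counts per 1000000 assigned counts after TMM scaling (CPM), and means are given with the SD over n = 3 libraries. One library stood apart in each of 2 ages. Fetal replicate 3 differed from the other fetal libraries, with a chi-square per degree of freedom over genes of 90.0 and 97.3, against 3.94 between the other two. Adult replicate 1 differed likewise from adult replicates 2 and 3, at 25.8 and 43.0 against 6.76. The fibroblast genes Col1a1, Col3a1, Fn1 and Vim were high in all ages, but fibroblast markers were not steady. The 11 fibroblast markers summed to 36218 to 78422 CPM in fetal libraries, 94599 to 101895 in neonatal ones and 40209 to 51227 in adult ones. Of the 11, 4 were called higher and 0 lower from fetal to neonatal cells, 3 higher and 4 lower from neonatal to adult cells, and 5 and 3 from fetal to adult cells. Col1a2, another defining fibroblast gene, was at 0.0531 to 0.976 CPM in every library, with annotated exons spread from base 29529854 to 31569152 of chromosome 4 in rn6; the cause was not tested. The 12 macrophage markers summed to 17.6 to 71.5 CPM in fetal libraries, 153 to 170 in neonatal ones and 3984 to 5550 in adult ones, with Cd163 at 0 in every fetal and neonatal library. Fetal replicate 3 held 71.5 CPM of these markers against 18.9 and 17.6 in fetal replicates 1 and 2, and 36218 CPM of the 11 fibroblast markers against 78422 and 76893.

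All 9 complement genes were higher in adult than in fetal and neonatal cultures, and 6 of them were already called higher in neonatal than in fetal cells. From neonatal to adult cells 9 of 9 were called higher (edgeR adjusted p under 0.05), against 31.6% of the 11337 genes tested, and from fetal to adult cells 9 of 9 against 34.9%. From fetal to neonatal cells C1qa, C1qb, C1qc, C1s, Cfd and Serping1 were called higher, 6 of 9 against 18.3% of the genes tested. Of these, C1qb and C1qc lost the call under 6 and 8 of 16 alternative settings. Cfd rested on 5, 4 and 2 neonatal counts against 0 fetal ones. No member was called lower in any of the 3 comparisons by edgeR, and 0 were lower at an unadjusted p under 0.05 or by DESeq2. All 9 passed the filter on low counts, but Cfd did so only through its adult libraries. With only fetal and neonatal libraries in the fit, Cfd had too few counts to be tested. Its place in the counts of genes called or without overlap is therefore not independent of the filter. Their median log2 fold change was 2.23 from fetal to neonatal, 5.03 from neonatal to adult and 7.21 from fetal to adult cells, while the medians over all genes tested were -0.01, -0.01 and -0.01. With Cfd, which had 0 fetal counts, set to its lower bound, the members' medians were 1.98 from fetal to neonatal and 7.08 from fetal to adult cells. Both adult comparisons share the adult libraries and are not independent. The libraries of the ages compared did not overlap for 9 of 9 genes in both adult comparisons, against 37.6% of tested genes without overlap and higher in adult than neonatal cells and 35.9% in adult than fetal cells. Between fetal and neonatal libraries 6 of 9 did not overlap, against 29.2%. In these bulk cultures more cells of a type and more RNA per cell cannot be told apart. Together the 9 genes took 0.00209% to 0.00337% of the counts of a fetal library, 0.0109% to 0.0110% of a neonatal one and 0.298% to 0.594% of an adult one.

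**Figure D1:**
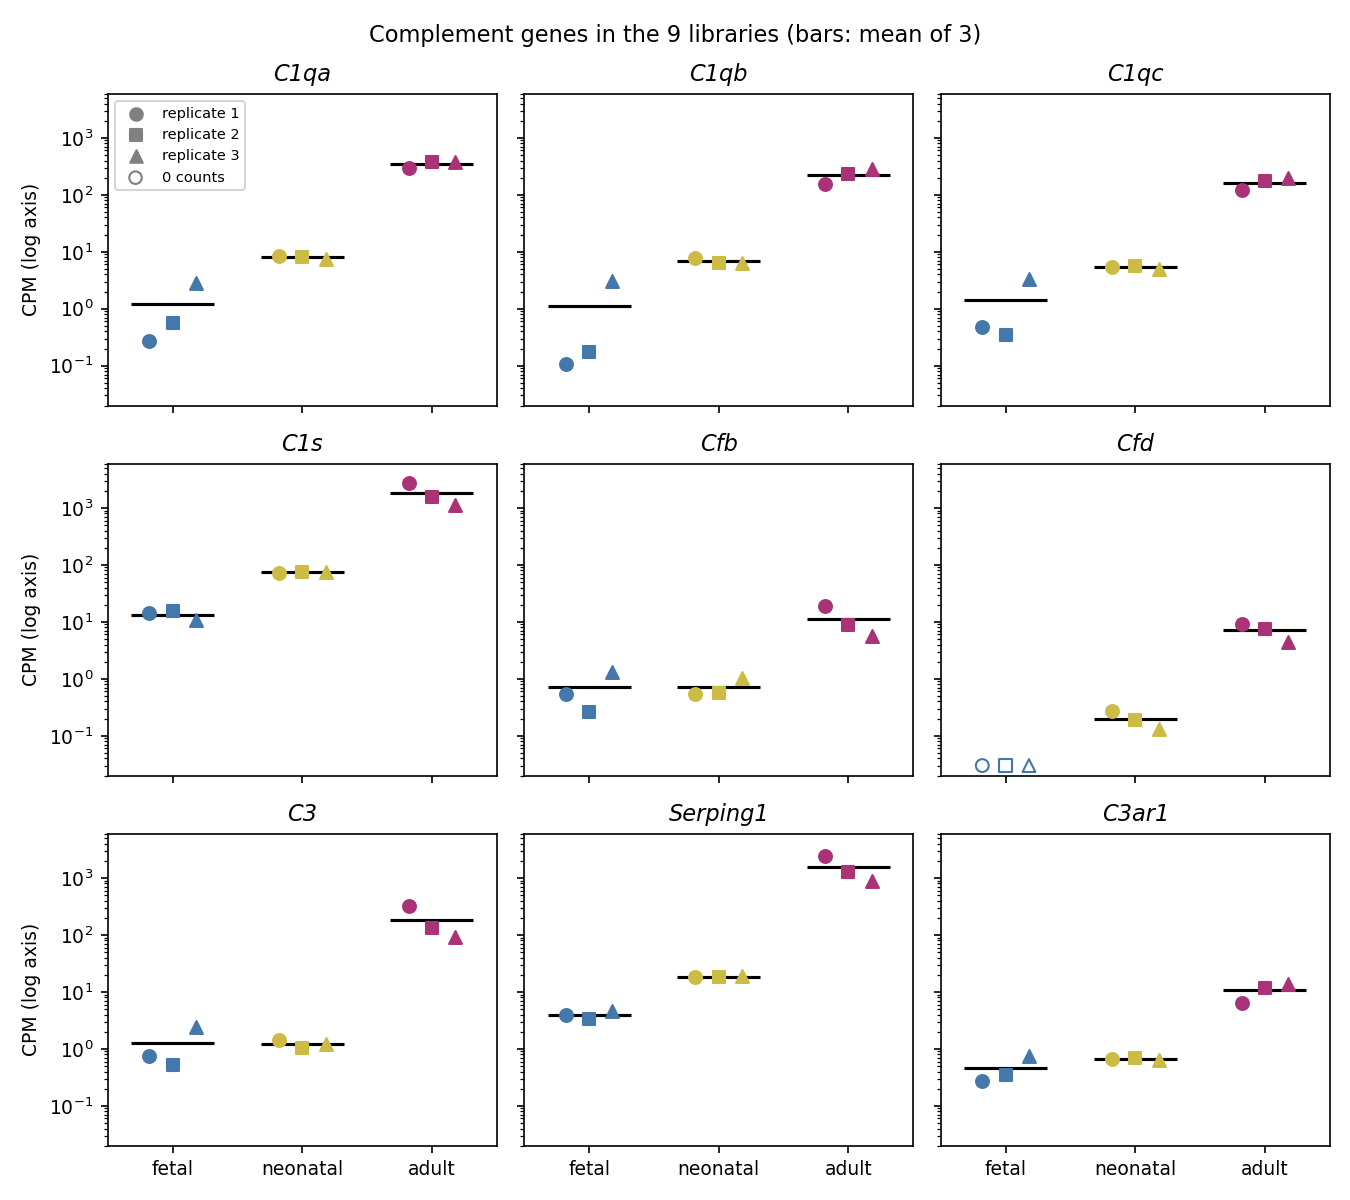
CPM of each of the 9 complement genes on a log axis in the 9 libraries; points are libraries, marker shapes are replicate numbers, horizontal bars are the means of 3 and open symbols at the bottom are libraries with 0 counts. Every adult library lies above every fetal and neonatal library for all 9 genes, and C1qa, C1qb and C1qc are highest among fetal libraries in replicate 3.

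The recognition molecule comes first. The 3 C1q genes lie side by side on the minus strand of chromosome 5 (rn6), C1qb at 155246444 to 155251993, C1qc at 155255025 to 155258351 and C1qa at 155261254 to 155264101. They fill 17658 bases, with gaps of 3031 and 2902 bases, and each has 3 annotated exons and no exon that overlaps another gene of the table. Within 50 kb the table holds only 1 other gene, Ephb2. The bases upstream of C1qa and C1qb are shown because these neighbours moved together, and those of C3, the central component, because it did not move with them between fetal and neonatal cells. The sequences are 250 bases directly upstream of the RefSeq start on assembly GRCr8, all on the minus strand of that assembly, 5′ to 3′, with capitals on matches to the motifs searched.
C1qa, chr5:154419934-154420183: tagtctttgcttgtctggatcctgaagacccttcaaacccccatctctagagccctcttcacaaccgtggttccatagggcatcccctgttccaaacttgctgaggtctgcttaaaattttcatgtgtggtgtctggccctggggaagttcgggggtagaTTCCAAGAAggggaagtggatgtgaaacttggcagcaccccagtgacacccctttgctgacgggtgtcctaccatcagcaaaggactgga
C1qb, chr5:154407828-154408077: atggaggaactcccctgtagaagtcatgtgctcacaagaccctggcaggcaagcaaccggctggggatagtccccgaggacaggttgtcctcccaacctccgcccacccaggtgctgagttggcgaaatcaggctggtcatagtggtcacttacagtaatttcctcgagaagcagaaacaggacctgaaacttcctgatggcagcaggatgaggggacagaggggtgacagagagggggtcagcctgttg
C3, chr9:2201340-2201589: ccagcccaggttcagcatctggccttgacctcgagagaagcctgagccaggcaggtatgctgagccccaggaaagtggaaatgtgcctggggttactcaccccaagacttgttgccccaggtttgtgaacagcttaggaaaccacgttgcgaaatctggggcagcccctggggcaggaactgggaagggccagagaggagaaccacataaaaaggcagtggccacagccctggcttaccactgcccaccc
Upstream windows were found for 5 of the 9 members (C1qa, C1qb, Cfd, C3 and C3ar1). On both strands they were searched for GAGGAAGT (bound by PU.1), the core of the interferon-stimulated response element, TTCNNNGAA (STAT factors), the consensus of NF-kB and TTGCGCAA (C/EBP). The only match was TTCCAAGAA, a STAT-type match that overlaps no other, from 90 to 82 bases upstream of the C1qa start, and 7.67% of 33469 windows of the same length held this motif. The other motifs occurred in 2.04%, 3.41%, 0.0956% and 0.140% of all windows, in the order PU.1, interferon element, NF-kB and C/EBP.

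C1qa, which encodes the A chain, stood at 0.270, 0.573 and 2.82 CPM in fetal replicates 1 to 3, at 8.31, 8.13 and 7.38 in the neonatal and at 290.4, 375 and 384 in the adult libraries. The 3 ages did not overlap. C1qa rose 6.51-fold from fetal to neonatal cells (log2 2.73, SE 0.51, edgeR adjusted p = 0.00419) and 44.0-fold from neonatal to adult cells (log2 5.46, SE 0.42, edgeR adjusted p = 7.70e-06). Without fetal replicate 3 the first of these log2 fold changes was 4.17 (edgeR adjusted p = 1.02e-05).

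C1qb, the B chain gene, was at 0.108, 0.176 and 3.08 CPM in fetal libraries, 7.71, 6.32 and 6.41 in neonatal ones and 153, 228 and 287 in adult ones. The fetal values thus differed 28.5-fold between the lowest and the highest library, whereas the neonatal ones differed 1.22-fold. C1qb rose 6.07-fold from fetal to neonatal cells (log2 2.65, SE 0.73, edgeR adjusted p = 0.0223) and 32.7-fold from there to adult cells (log2 5.03, SE 0.57, edgeR adjusted p = 7.59e-05). The fetal to neonatal call failed without fetal replicate 1 or 2 or without any 1 of the neonatal libraries (edgeR adjusted p from 0.0505 to 0.0668) and with only the libraries of both ages in the fit (0.0723), and without fetal replicate 3 the log2 fold change was 5.48.

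C1qc, the C chain gene, was at 0.486, 0.353 and 3.35 CPM in fetal libraries, 5.45, 5.58 and 4.98 in neonatal ones and 122, 171 and 199.8 in adult ones. As for the other chains, the ages did not overlap and fetal replicate 3 was the highest fetal library. C1qc rose 3.82-fold from fetal to neonatal cells (log2 1.98, SE 0.60, edgeR adjusted p = 0.0323) and 30.8-fold to adult cells (log2 4.94, SE 0.48, edgeR adjusted p = 3.23e-05). The fetal to neonatal call was lost without fetal replicate 1 or 2 or any 1 neonatal library (edgeR adjusted p from 0.0730 to 0.0899), with library size alone as the scaling (0.0501), without the filter on low counts (0.0522) and with only the libraries of both ages in the fit (0.0850). Without fetal replicate 3 the log2 fold change was 3.67.

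The chains join in equal numbers in the protein, so their balance per length of exons was compared. In neonatal libraries C1qa made up 40.8% ± 0.944 (SD, n = 3) of the summed level per kilobase, C1qb 32.5% ± 2.14 and C1qc 26.7% ± 1.20. In adult libraries these shares were 49.3% ± 3.66, 28.6% ± 2.89 and 22.2% ± 0.778. C1qa thus had the largest share in all 6 of these libraries, and its share was higher in every adult than in every neonatal library. Fetal shares rested on 16, 25 and 174 C1q counts per library and ranged from 31.5% to 53.0% for C1qa.

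Macrophage markers moved with the C1q genes. All 12 markers of the macrophage list, among them Ptprc, Csf1r and Cd68, were called higher in adult than in neonatal and in fetal cells, and 7 of 12 in neonatal than in fetal cells. Their median log2 fold changes were 2.05, 5.01 and 7.27 from fetal to neonatal, neonatal to adult and fetal to adult cells. C1q counts per macrophage marker count were 0.0457, 0.0627 and 0.129 in fetal libraries, 0.126, 0.131 and 0.121 in neonatal ones and 0.142, 0.161 and 0.157 in adult ones. By this list the adult values lay above every neonatal value by little, and fetal replicate 3 lay within the neonatal range. The list sum rested on different markers by age. Lyz2 averaged 4.85 of 36.0 CPM in fetal and 2165 of 4781 CPM in adult libraries. Against Csf1r alone, which encodes the macrophage growth factor receptor, the ratio was 0.533 ± 0.0770 in fetal libraries, 0.710 ± 0.0158 in neonatal ones and 1.45 ± 0.0468 in adult ones. Here fetal replicate 3, at 0.619, lay below the neonatal range of 0.692 to 0.720. Against Ptprc, the common leukocyte antigen gene, the ratio was 2.78 ± 0.426 in neonatal and 5.15 ± 0.805 in adult libraries. Fetal replicate 3, at 3.35, lay above the neonatal range of 2.30 to 3.12. How far the marked cells account for the C1q levels was not tested.

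**Figure D2:**
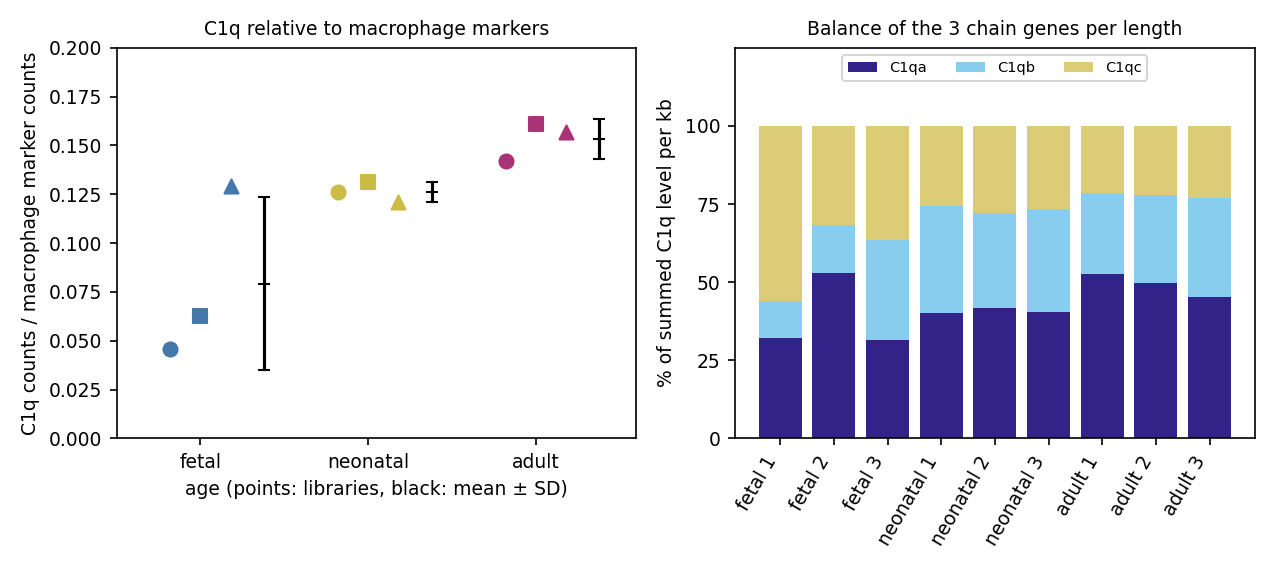
Left, summed C1q counts divided by summed counts of 12 macrophage markers in each library (points), with the mean ± SD per age in black; right, stacked bars of the share of each C1q chain gene in the summed level per kilobase. The ratio was 0.0457 to 0.129 in fetal libraries, 0.121 to 0.131 in neonatal ones and 0.142 to 0.161 in adult ones, and C1qa holds the largest share in all neonatal and adult libraries.

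The proteases and their inhibitor follow. C1s (chromosome 4, 157143592 to 157155596, 12 exons), the protease of the C1 complex that cleaves C4 and C2, stood at 14.1, 15.3 and 10.8 CPM in fetal libraries, 71.9, 75.8 and 74.5 in neonatal ones and 2756, 1572 and 1123 in adult ones. No ages overlapped, and the adult libraries spread 2.45-fold. C1s rose 5.52-fold from fetal to neonatal cells (log2 2.46, SE 0.31, edgeR adjusted p = 0.000613) and 24.5-fold from neonatal to adult cells (log2 4.62, SE 0.33, edgeR adjusted p = 4.98e-06). Its partner protease gene C1r, which lies beside it on the opposite strand at 157126060 to 157136817, rose from 99.8 to 422 and 2460 CPM. Per length, C1s was at 0.124 ± 0.0144 of the C1r level in fetal libraries, 0.163 ± 0.00454 in neonatal ones and 0.680 ± 0.0320 in adult ones (SD, n = 3).

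Serping1 (chromosome 3, 72161243 to 72170537, 7 exons), the gene of the C1 inhibitor, was at 3.94, 3.40 and 4.57 CPM in fetal libraries, 18.5, 18.3 and 19.0 in neonatal ones and 2477, 1263 and 874 in adult ones. The fetal and neonatal libraries were tight and the adult libraries spread 2.83-fold, highest in replicate 1. The rise was 4.68-fold from fetal to neonatal cells (log2 2.23, SE 0.38, edgeR adjusted p = 0.00265) and 82.7-fold from neonatal to adult cells (log2 6.37, SE 0.40, edgeR adjusted p = 2.44e-06). Per length of exons the inhibitor gene stood below its target C1s in fetal (ratio 0.358 to 0.686) and neonatal libraries (0.391 to 0.416) and above it in adult libraries (1.26 to 1.45).

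C3 (chromosome 9, 9721137 to 9747084, 41 exons), the central component, was at 0.756, 0.529 and 2.44 CPM in fetal libraries, 1.43, 1.02 and 1.23 in neonatal ones and 316, 131 and 93.6 in adult ones. Fetal and neonatal libraries overlapped, and every adult library lay far above both. Between fetal and neonatal cells C3 was not called (log2 0.01, SE 0.87, edgeR adjusted p = 0.995), a difference whose sign turned on single libraries, from -0.39 without fetal replicate 2 to 0.94 without fetal replicate 3. From neonatal to adult cells C3 rose 147-fold (log2 7.20, SE 0.65, edgeR adjusted p = 1.96e-05). That was the highest fold change of the 9 genes in this comparison, ahead of Serping1.

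Factor B and factor D form the alternative pathway convertase and its activating protease. Cfb (chromosome 20, 4536206 to 4542073, 18 exons), which lies directly beside C2 within the major histocompatibility region, was at 0.540, 0.265 and 1.33 CPM in fetal libraries, 0.550, 0.558 and 1.04 in neonatal ones and 18.8, 8.96 and 5.69 in adult ones. Fetal and neonatal libraries overlapped (log2 0.01, SE 0.70, edgeR adjusted p = 0.995), and these libraries held 6 to 25 Cfb counts each. Cfb rose 15.6-fold from neonatal to adult cells (log2 3.98, SE 0.62, edgeR adjusted p = 0.000419). Between fetal and neonatal cells its log2 difference was -0.42 without fetal replicate 2 and 0.82 without fetal replicate 3, neither called.

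Cfd (chromosome 7, 12634216 to 12635939, 5 exons) had 0 counts in every fetal library, 5, 4 and 2 in the neonatal and 122, 105 and 59 in the adult libraries. These adult counts are 9.34, 7.58 and 4.42 CPM. The edgeR tests of no difference from fetal libraries gave an adjusted p of 0.0171 for neonatal and 1.15e-05 for adult libraries. The size of the difference was bounded separately, with 3 counts per library as the limit that a count of 0 allows. The observed mean was 1.30-fold that limit in neonatal and 47.0-fold in adult libraries. These bounds leave out counting error in the neonatal and adult counts. Neonatal replicate 3, with 2 counts, was itself under the limit of 3 counts. From neonatal to adult cells Cfd rose 36.1-fold (log2 5.11, SE 0.45, edgeR adjusted p = 5.04e-05). Of the adipocyte markers, cells for which Cfd is well known, Adipoq was at 0 in all adult libraries and Plin1 and Lep were at a mean of 0.0241 and 0.447 CPM. Fabp4, which macrophages also express, made up nearly all of the list's adult sum of 80.2 to 115 CPM.

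The receptor gene C3ar1 (chromosome 4, 155684027 to 155690869, 2 exons) was at 0.270, 0.353 and 0.744 CPM in fetal libraries, 0.661, 0.697 and 0.647 in neonatal ones and 6.28, 11.7 and 13.9 in adult ones. Fetal replicate 3 lay above every neonatal library, and the adult libraries stood apart from both ages. C3ar1 was not called from fetal to neonatal cells (log2 0.56, SE 0.48, edgeR adjusted p = 0.382) and rose 15.9-fold to adult cells (log2 3.97, SE 0.40, edgeR adjusted p = 2.49e-05). The first comparison passed the threshold only when fetal replicate 3 and adult replicate 1 were both left out (log2 1.07, edgeR adjusted p = 0.0401). Relative to the summed macrophage list its counts went the other way from C1q. There were 0.0104 to 0.0201 C3ar1 counts per marker count in fetal libraries, 0.00389 to 0.00456 in neonatal ones and 0.00157 to 0.00250 in adult ones. The fetal ratios rested on 5, 8 and 14 C3ar1 counts, and the list sum rested on different markers by age. Against single markers the neonatal to adult change was small, since Csf1r and Ptprc rose by 4.17 and 4.29 on the log2 scale, beside 3.97 for C3ar1.

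**Figure D3:**
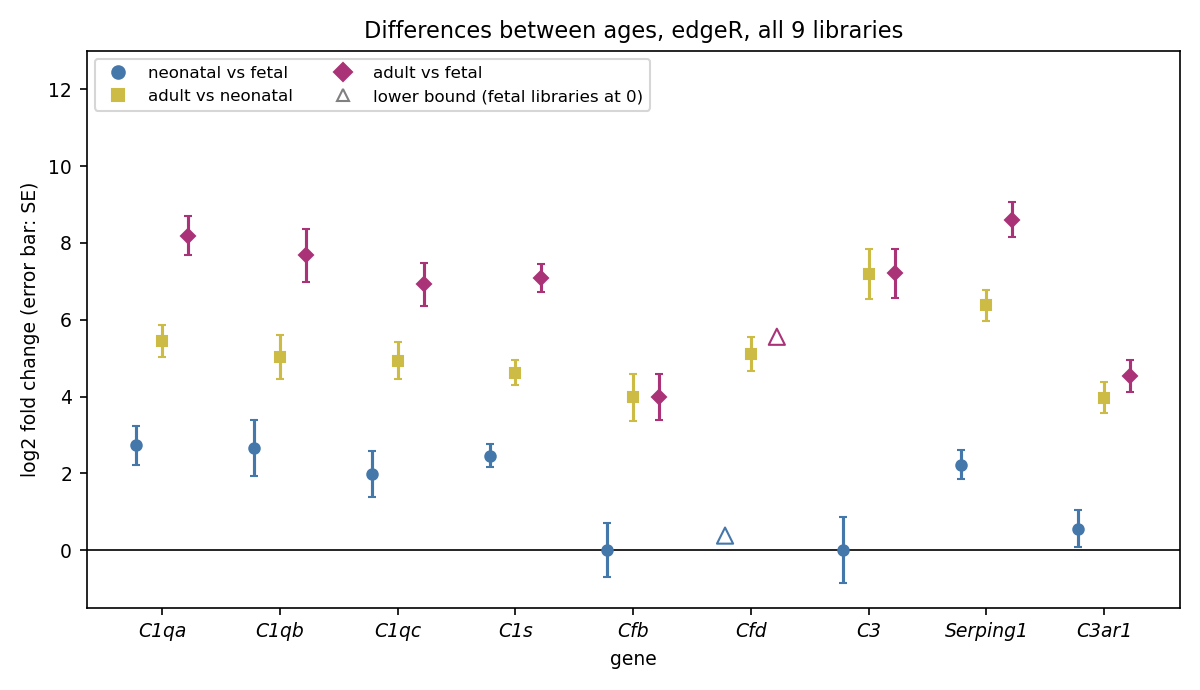
Log2 fold change of the 9 complement genes between each pair of ages, with the SE from edgeR as error bars; open triangles are lower bounds for Cfd, whose fetal libraries had 0 counts. C3 and Cfb lie near 0 between neonatal and fetal cells (0.01 and 0.01) and C3ar1 at 0.56, none of them called. The Cfd triangle at 0.38 is a lower bound only, and Cfd was called higher. All points of both adult comparisons lie at 3.97 or above.

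Per length of exons, the order of the 9 genes changed with age. In neonatal libraries C1s led with 25.6 ± 0.677 CPM per kilobase, followed by Serping1 with 10.4 ± 0.189, C1qa with 7.93 ± 0.494, C1qb with 6.33 ± 0.721 and C1qc with 5.19 ± 0.303, and none of these neighbours overlapped. The other neonatal members, C3ar1, Cfb, C3 and Cfd, lay between 0.235 and 0.330 CPM per kilobase on average and overlapped with their neighbours. In adult libraries Serping1 (859 ± 467) and C1s (627 ± 291) led and overlapped with each other. C1qa (349 ± 51.5) followed without overlap, then C1qb (207 ± 62.3) and C1qc (159.5 ± 38.5), which overlapped. C3 stood at 35.5 ± 23.5 and apart from its neighbours, and Cfd (8.51 ± 2.98), C3ar1 (5.24 ± 1.93) and Cfb (4.36 ± 2.67) overlapped in the lowest places. In fetal libraries C1s was first with 4.63 ± 0.813 and clear of Serping1 with 2.22 ± 0.328, and the genes from Serping1 down to C3ar1 overlapped with their neighbours.

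The adult libraries split the 9 genes into a pair of opposite patterns. C1s, Serping1, C3, Cfb and Cfd were highest in adult replicate 1 and lowest in adult replicate 3, with ratios between these libraries of 2.45, 2.83, 3.38, 3.31 and 2.11. C1qa, C1qb, C1qc and C3ar1 were lowest in replicate 1 and highest in replicate 3, which exceeded replicate 1 by 1.32, 1.87, 1.64 and 2.21 times. Over all genes tested, 25.2% had the first order and 22.4% the second, and 4.76% of genes with counts in both libraries had a ratio of replicate 1 to replicate 3 over 2. These are descriptions of 3 libraries with no test.

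Of the 12 macrophage markers, 8 had the same order as the C1q genes, and their sum was 3984, 4810 and 5550 CPM in adult replicates 1, 2 and 3. Cd163 was the single macrophage marker with the opposite order (6.28, 2.82 and 2.25 CPM). The fibroblast markers divided. Pdgfra, the alpha receptor gene for platelet-derived growth factor, was at 669, 384 and 245 CPM, and Tcf21, a transcription factor of cardiac fibroblasts, was at 226, 113 and 108 CPM in the same libraries. With Dcn (471, 359 and 229.8 CPM) and the barely detected Col1a2 these made 4 of 11 with the order of C1s and Serping1. Col1a1, Col3a1, Fn1, Vim and Thy1 had the reverse order, with Col1a1 at 11890, 15691 and 17313 CPM. The sum of the fibroblast markers was 40209, 47509 and 51227 CPM. Less abundant markers of other cells divided as well. The 5 endothelial markers summed to 25.4, 18.6 and 12.8 CPM in adult replicates 1, 2 and 3, the order of C1s. The 3 mesothelial markers had that order too, at 32.7, 19.9 and 13.8 CPM. The adipocyte sum, nearly all Fabp4, had the reverse order, at 80.2, 101 and 115 CPM. The cardiomyocyte sum, nearly all Tnnt2, also had the reverse order, at 304, 311 and 318 CPM. The part of cell makeup in the spread of the complement genes was not tested.

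**Figure D4:**
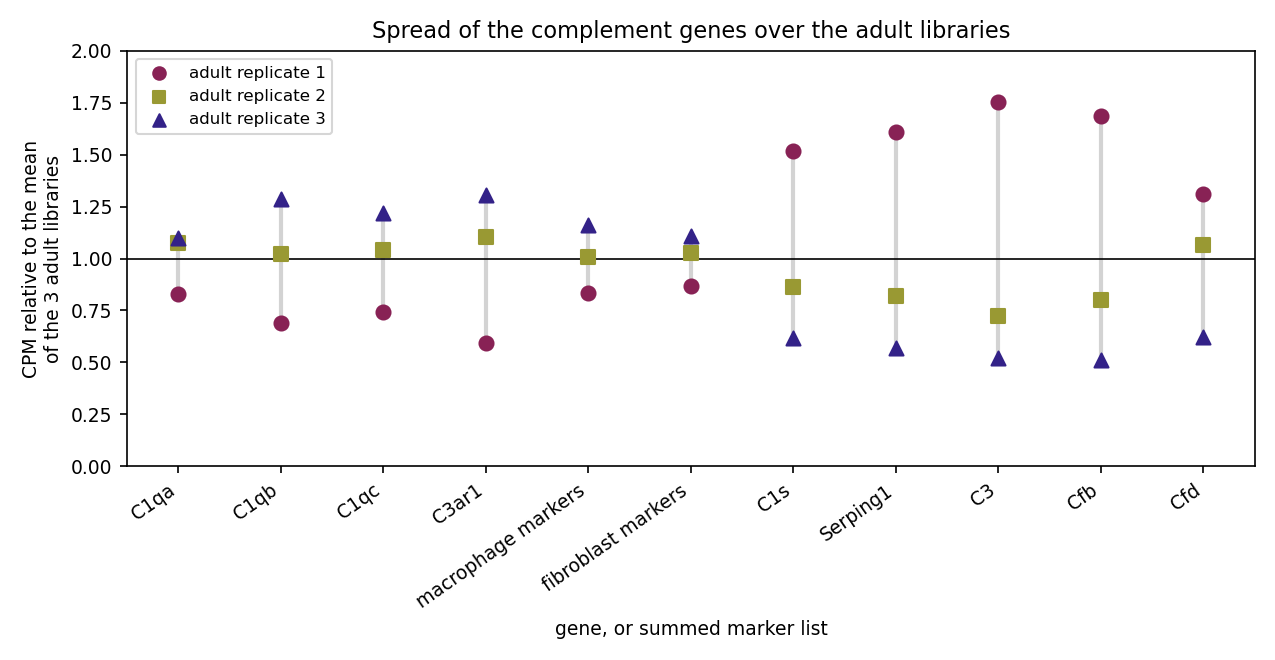
CPM in each adult library divided by the mean of the 3 adult libraries, for the 9 complement genes and the summed macrophage and fibroblast markers. Adult replicate 1 lies lowest for the C1q genes, C3ar1 and both marker sums and highest for C1s, Serping1, C3, Cfb and Cfd, where it reaches 1.76 times the mean for C3.

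Genes whose log2 CPM over the 9 libraries was most like that of a member differed between members. Pearson's r is given over 9 libraries as a description, since the libraries share depth and fall into 3 ages. Csf1r was nearest to C1qb (r = 0.9997), before Cybb and Gas7. Ctss, Clec5a and Hcls1 were nearest to C1qa (0.998 to 0.997) and Nckap1l, Was and Vav1 to C1qc (0.999). Rarres1, B4galt5 and Hsd11b1 were nearest to C1s (0.998 to 0.997) and Rgl1, Vwa1 and Tap1 to Serping1 (0.998 to 0.997). Rgl1 was also among the 3 nearest to Cfd, with Galm and the complement gene C2 (0.998 to 0.996). For C3 they were Dazap2, Glul and Diaph1 (0.998 to 0.997), for C3ar1 Cdc42se1, Abr and Emp3 (0.997 to 0.995) and for Cfb Gsdmd, Igfbp3 and Szrd1 (0.987 to 0.984). Pearson's r compares the pattern and not the size of change. Dazap2, for example, averaged 161 CPM in neonatal and 256 in adult cells, where C3 averaged 1.23 and 180 CPM.

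Of the other complement genes listed, 41 were in the table and 28 had enough counts to be tested. From neonatal to adult cells 23 of 28 were called higher and 1 lower, from fetal to adult cells 21 and 2, and from fetal to neonatal cells 13 and 1. All genes tested were called lower at 31.8%, 35.5% and 18.0% in the same order, and higher at 31.6%, 34.9% and 18.3%. The median log2 fold changes of these 28 genes were 1.87, 2.89 and 0.65 in that order, the last being 0.59 with Vsig4 at its lower bound, beside medians of 5.03, 7.21 and 2.23 of the 9 members.

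In the classical and lectin pathways 7 of 10 tested genes were called higher and 1 lower in both adult comparisons. C2, the C1s substrate, stood at 3.15 ± 0.209 CPM in fetal libraries, 7.51 ± 0.762 in neonatal ones and 122 ± 18.2 in adult ones (SD, n = 3). It rose from neonatal to adult cells by 4.02 on the log2 scale (SE 0.13, edgeR adjusted p = 3.13e-08). C4a and C4b, near-identical copies of the other C1s substrate whose reads the counting could split or lose, stood at 107 and 20.9 CPM in adult cells and rose by 5.71 and 5.67 on the log2 scale from neonatal cells. C4a spread 4.36-fold and C4b 6.36-fold over the adult libraries, highest in replicate 1. Fcna, a lectin pathway recognition gene, averaged 0.166 CPM over neonatal and 4.59 CPM over adult libraries (edgeR adjusted p = 3.69e-05) and was highest in adult replicate 3. Masp1, a lectin pathway protease, rose to 42.5 CPM in neonatal cells (log2 1.94, edgeR adjusted p = 0.00993) and fell to 3.94 in adult cells (log2 -3.43, edgeR adjusted p = 0.000339). Its fetal value was 3.77 CPM in replicate 3 against 13.6 and 15.7 in replicates 1 and 2, so that fetal and adult libraries overlapped.

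All 7 tested receptor genes were called higher in each of the 3 comparisons. C5ar1, the receptor for the C5 fragment that attracts leukocytes, had mean levels of 1.06, 6.80 and 262 CPM from the youngest to the oldest cells and was called higher at each step. In fetal replicates 1 to 3 it stood at 0.216, 0.0882 and 2.87 CPM, highest in replicate 3 as for the C1q genes. Itgam and Itgb2, the subunits of complement receptor 3, reached 187 and 649.6 CPM in adult cells, by 4.67 and 5.66 on the log2 scale above neonatal cells. Vsig4, a receptor of resident macrophages for C3 fragments, had 0 counts in all fetal libraries and averaged 5.46 CPM over the adult ones, a level at least 36.1-fold higher. In the terminal and alternative pathways C6 rose from 0.641 CPM in neonatal to 29.1 in adult cells (log2 5.50, edgeR adjusted p = 0.000525), with 62.8, 15.7 and 8.76 CPM in adult replicates 1 to 3. Cfp, which encodes properdin, the stabiliser of the alternative convertase, rose from 5.19 to 23.5 CPM (log2 2.18, edgeR adjusted p = 3.42e-06).

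Regulators differed among themselves. Of 8 tested, 6 were called higher from neonatal to adult cells, 4 higher and 1 lower from fetal to adult cells, and 1 lower from fetal to neonatal cells. Cd55 rose from 8.78 CPM in neonatal to 32.7 in adult cells (log2 1.90, edgeR adjusted p = 0.00138). Cd59 changed less, from 72.6 to 101 CPM (log2 0.48, edgeR adjusted p = 0.0144). Cfi, the protease that inactivates the C3 and C4 fragments, had a single count over the neonatal libraries and averaged 4.16 ± 3.29 CPM in the adult ones (edgeR adjusted p = 0.000636), highest in adult replicate 1. Clu, clusterin, an inhibitor of the terminal pathway, went against the members. Its level fell between fetal (1122 ± 143 CPM) and neonatal libraries (173 ± 10.8) (log2 -2.70, edgeR adjusted p = 0.00179) and was 273 ± 185 CPM in adult libraries, not called against neonatal cells.

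**Figure D5:**
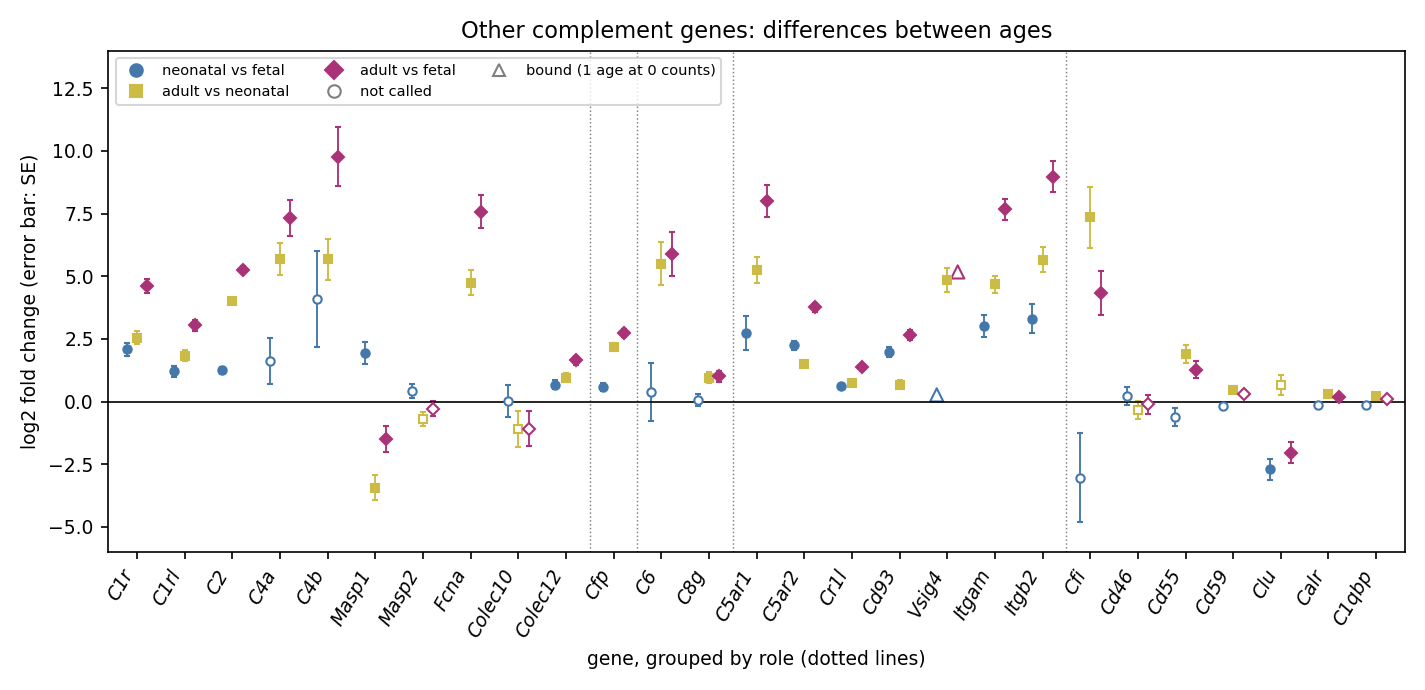
Log2 fold change between each pair of ages for the other complement genes tested, less 1 regulator not reported here, grouped by role, with SE as error bars; white symbols were not called and open triangles are lower bounds where the libraries of 1 age were all at 0 counts. Receptors lie above 0 in all 3 comparisons, while Masp1 and Clu have called decreases.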

How the data were processed

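RNA of 9 cultures, 3 per age, was sequenced. Per the submitters' processing notes, Trimmomatic 0.39, STAR 2.5.2b and featureCounts (Subread 1.6.3) were used, in settings not given in the sources used here. The deposited table holds raw read counts per gene, made by the authors, per the file headers, with an rn6 annotation and no strand option. A deposited table of normalized signal equalled these counts divided by 1 size factor per library and gave only an alternative scaling. Exon lengths come from the count table, per the file headers. Differences were tested in edgeR 4.0.16 (R 4.3.3) with TMM and a robust quasi-likelihood fit to all 9 libraries, for 11337 genes kept by filterByExpr, with Benjamini-Hochberg adjustment over all of them and a threshold of 0.05. SEs came from the fold change and F statistic. Means of CPM use TMM-scaled library sizes, log2 CPM a prior count of 2. The script was tested on simulated data. DESeq2 1.42.0, other scalings, filters, fits and omissions of libraries were alternatives.

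Members and lists were chosen with earlier results of these data known. Named are all members, called other complement genes with at least 1 CPM in the higher age (up to 4 per role and comparison, by log2 fold change), and per member the 3 most correlated genes with at least 10 CPM. Some called genes within these limits, such as C1rl, C5ar2 and C8g, are not described above. Other complement genes lie in 5 roles; Colec11, C5, C7 and Itgax were not analysed here. One tested regulator is in the counts of its list but is not reported here. Marker lists were fibroblast, macrophage, neutrophil, lymphoid, adipocyte, hepatocyte, endothelial, cardiomyocyte and mesothelial. Neutrophil, lymphoid and hepatocyte markers summed to at most 1.95, 0.612 and 0.918 CPM in any library, endothelial ones to 25.4 and mesothelial ones to 56.4. Cardiomyocyte markers summed to 6160 to 9598 CPM in fetal, 4628 to 5144 in neonatal and 304 to 318 in adult libraries. The adult sum was nearly all Tnnt2 (mean 310 CPM). Myh6, Myh7, Tnni3, Actn2 and Nppa each averaged at most 0.565 CPM in adult libraries. No pair of libraries agreed within counting noise. A floor of 3 counts covers counting error only.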

Additional observations from a re-analysis of the deposited data

How the results depend on the processing

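Of 431 member fold changes under the alternatives, 416 kept their direction and side of the threshold or stayed uncalled, 14 (C1qb and C1qc from fetal to neonatal cells) lost the call and 1 (C3ar1) gained it. All 9 members stayed higher in both adult comparisons under every alternative run. From fetal to neonatal cells, 3 members were called with only the libraries of those ages in the fit, where Cfd had too few counts to be tested, and 4 to 6 when single libraries were left out, against 6. Calls of other complement genes as lower numbered 1, 1 and 2 (fetal to neonatal, neonatal to adult, fetal to adult). The first was 2 with DESeq2 and 4 with library size alone. The second was 3 and the third 1 with only the 2 ages compared. Leaving out single libraries gave 1 to 2, 1 to 3 and 1 to 3, and leaving out fetal replicate 3 and adult replicate 1, chosen after seeing the data, gave 3, 2 and 3. The 5 C1q ratios that moved are other quantities by construction: 0.533, 0.710 and 1.45 per Csf1r count (fetal, neonatal, adult) and 2.78 and 5.15 per Ptprc count (neonatal, adult); fetal Ptprc had a library at 0. With the replicate block the fetal to neonatal calls were 6 members and 14 other genes, against 6 and 13. Libraries with the same number did not deviate together (correlations from -0.0649 to 0.0521 over 9 pairs). With deviations taken within 3 libraries per age, this check cannot exclude a shared preparation or batch, which the labels do not name. Depth limits Cfd, Cfb, C3, C3ar1 and the fetal C1q genes, with 25 or fewer counts in fetal replicates 1 and 2.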
